A study of Mus musculus with 12 samples.

Results

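Potassium channels are the proteins that bring an excited b cell back to rest. When glucose is metabolised, ATP-sensitive potassium channels close, the membrane depolarises, calcium enters and insulin is released, after which voltage-gated and calcium-activated potassium channels repolarise the cell, while two-pore-domain channels and inward rectifiers set its resting potential. Pore-forming subunits work together with auxiliary proteins that alter their gating and traffic, and modifier Kv subunits form channels only in company with other Kv subunits. DNA methylation at CpG sites is usually low at active or poised promoters and enhancers, and such stretches are called hypomethylated regions (HMRs). The data described here are the methylation of 90 autosomal protein-coding genes whose symbol starts with Kcn, of 20621 autosomal protein-coding genes in all, with 2 genes left out by the rule that chose them. By symbol, 28 encode voltage-gated pore-forming subunits, 10 modifier Kv subunits, 14 inward rectifiers, 14 two-pore-domain channels and 8 calcium- or sodium-activated channels, and 16 encode auxiliary subunits.

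Whole-genome bisulfite sequencing was done on b cells sorted from MNYI mice, which carry Myt1cCre, Ngn3nCre, a Rosa26eYFP reporter and InsApple, so that eYFP marks descendants of progenitors that expressed both Myt1 and Ngn3 (eYFP+) and Apple+ cells without eYFP descend from other Ngn3+ progenitors (eYFP-). Both subtypes carry the same alleles and were told apart by the reporter. Cells were taken at postnatal day 2 (P2, 2 libraries a subtype) and postnatal day 60 (P60, 4 libraries a subtype), 12 libraries in all, each made from several sorts of several mice, with replicates 1 and 3 labelled female and 2 and 4 male, and the cell type label reads islet cells. For the reads, each subtype at each stage is a single pool of its libraries, while HMR positions are given library by library. The pools held on average 25.2 (P2 eYFP-), 25.3 (P2 eYFP+), 45.7 (P60 eYFP-) and 45.4 (P60 eYFP+) reads per autosomal CpG, of which 69.3%, 70.1%, 67.9% and 67.6% were methylated.

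Several facts of the libraries bear on all that follows. P2 libraries held 57122 to 60968 HMRs and P60 libraries 38064 to 49975, with the fewest in replicate 3 of each subtype, and the P2 libraries were a submission of their own, so stage and submission cannot be told apart. On the X chromosome, 254 regions were HMRs in every P60 library labelled male and in none labelled female. In the P2 eYFP- subtype they were present at 92.5% in the library labelled female and at 13.4% in the library labelled male, the reverse of P2 eYFP+ (13.0% and 84.3%), so the sex labels of the P2 eYFP- libraries went against the data, and only autosomes were used. Of 9 b cell markers, 7 had an HMR at the transcription start site (TSS) in 8 to 12 libraries, including Iapp, Nkx6-1, Pdx1, Mafa and Slc2a2, and Ins2 and G6pc2 had it in none. Gcg (54.6% to 62.3% methylated), Sst and Ppy, which define the other islet hormone cells, had it in no library. The transcription factor genes Irx1, Irx2, Hhex and Sox9, listed for other islet and ductal cells, had it in all 12 libraries at no more than 2.18%. Of the 4 acinar markers 1 had it in 1 library, the ductal Krt19 and Spp1 and the 3 immune markers had it in none, of the endothelial markers Kdr had it in 12 libraries, Pecam1 in 1 and Cdh5 in none, and the 3 mesenchymal markers had it in all 12 libraries at levels of 18.8% to 43.4%. The part of other cell types in the results was not tested.

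The levels at the start of each gene are given first. A TSS window was the annotated gene start plus and minus 500 bp, and its level the methylated share of all reads on its CpGs. All 90 windows held at least 3 CpGs and 50 reads in each pool (104 to 7322 reads, with a median of 856.5 at P2 and 1903 at P60). The level was under 10% in all 4 pools at 47 genes (52.2%, against 53.7% of all 19350 windows tested) and over 50% in all 4 pools at 17 genes (18.9%, against 26.1%). Median levels over the 90 genes were 7.68% (P2 eYFP-), 7.35% (P2 eYFP+), 7.81% (P60 eYFP-) and 8.19% (P60 eYFP+), where all windows had 5.97%, 6.11%, 6.38% and 6.52%. An HMR overlapped the window in all 12 libraries at 63 genes (70%, against 65.7% of all windows) and in no library at 20 genes.

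The classes spanned different ranges. Of the 28 voltage-gated genes, 21 were under 10% in all pools, from Kcnh2, the Erg channel (0.63% in the P60 eYFP- pool), to Kcnc2, a fast delayed rectifier (80.8%), with a class median of 2.99% in that pool. The calcium- or sodium-activated genes ran from Kcnn1, a small-conductance channel (0.54%), to Kcnu1, the sperm-specific channel (84.2%), and 5 of 8 were under 10%. Of the two-pore-domain genes 7 of 14 were under 10%, from Kcnk12 (0.44%) to Kcnk7 (71.6%). The inward rectifiers had 5 of 14 under 10%, from Kcnj2, which sets the resting potential of muscle (0.39%), to Kcnj1, the renal channel (79.3%). The modifier Kv genes had 3 of 10, from Kcng3 (0.66%) to Kcnv2 (84.7%), and the auxiliary genes 6 of 16, from Kcnmb4 (0.67%) to Kcnmb1 (85.5%), both BK channel subunits. The median CpG content, as the observed over expected ratio of the window, was 0.63 in the voltage-gated and in the two-pore-domain genes, 0.40 to 0.42 in the modifier, inward rectifier and calcium- or sodium-activated genes and 0.30 in the auxiliary genes, against 0.56 over all genes.

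CpG content went with the level. Of the 32 windows with a ratio of at least 0.6, 29 were under 10% in all pools (90.6%, against 93.0% of all such windows), and of the 28 windows with a ratio under 0.3, 2 were (7.14%, against 1.60%). These 2 were Kcna5 and Kcnk16. Kcnk16 encodes TALK-1, a two-pore-domain channel largely restricted to the pancreas. Its window held 9 CpGs at a ratio of 0.12, and its levels were 1.23% (P2 eYFP-), 0.79% (P2 eYFP+), 2.00% (P60 eYFP-, 11 of 550 reads, 95% Wilson interval 1.12% to 3.55%) and 1.18% (P60 eYFP+). Such intervals cover counting error only, and may be too narrow because a read is counted at every CpG it spans. The next count used stricter cutoffs than those above, which were used nowhere else and leave out Kcna5 by its ratio of 0.297. The values of Kcnk16 lay within both cutoffs, so the count describes this gene and does not test how unusual it is. Of all 3662 windows tested with a ratio under 0.2, 6 were under 5% in all 4 pools (0.164%), and Kcnk16 was the 1 of 13 potassium channel genes with so low a ratio that was. An HMR of 3613 bp lay over it in all 12 libraries, among the longest TSS HMRs of the 90 genes with those of Kcnk9 (4077 bp), Kcnn1 (3918 bp) and Kcna1 (3704 bp).

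**Figure D1:**
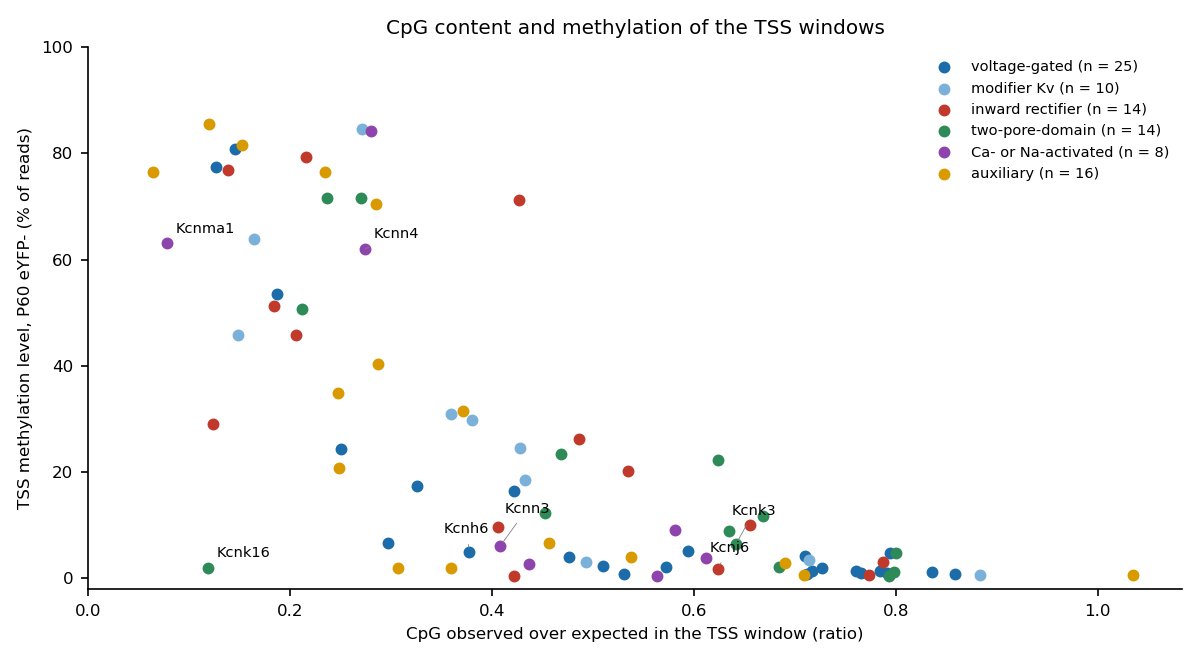
CpG observed over expected ratio (x axis) and methylation level in the P60 eYFP- pool (y axis, % of reads) of the TSS window of 87 of the 90 genes, coloured by channel class, with potassium channels known in b cells named. Windows with a ratio of at least 0.6 mostly lay near the bottom, and Kcnk16 lay at 2.00% with a ratio of 0.12.

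The sequences below, from GRCm39 and read 5′ to 3′ on the strand of the gene with CpGs in capitals, show the gene start with low level and few CpGs (Kcnk16) and 5 stretches within HMRs described further down: the largest rise (Kcnip4), the largest rise of an HMR found in all P2 and no P60 libraries (Kcnk1), the largest fall (Kcnma1), and the largest subtype differences at P2 (Kcnq3) and P60 (Kcne1). They lay at chr14:20319218-20319517 (minus strand), chr5:49398994-49399293 (minus), chr8:126744058-126744357 (plus), chr14:23683825-23684091 (minus), chr15:65899287-65899586 (minus) and chr16:92146256-92146443 (minus). The first runs from 250 bases before the gene start to 50 bases into the gene, and where an HMR was longer than 300 bases the 300 with the most CpGs are shown.
Kcnk16 gene start: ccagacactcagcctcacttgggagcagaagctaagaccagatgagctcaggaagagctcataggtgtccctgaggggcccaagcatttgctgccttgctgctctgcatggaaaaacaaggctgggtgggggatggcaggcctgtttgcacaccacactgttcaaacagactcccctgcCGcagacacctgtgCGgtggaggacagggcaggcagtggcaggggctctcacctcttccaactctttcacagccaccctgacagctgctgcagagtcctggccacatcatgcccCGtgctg
Kcnip4 intron: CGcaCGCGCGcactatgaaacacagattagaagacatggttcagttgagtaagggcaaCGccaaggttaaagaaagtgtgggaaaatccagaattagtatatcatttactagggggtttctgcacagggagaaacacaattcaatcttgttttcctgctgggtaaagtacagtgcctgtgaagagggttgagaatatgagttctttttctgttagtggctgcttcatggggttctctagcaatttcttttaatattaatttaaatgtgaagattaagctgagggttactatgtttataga
Kcnk1 intron: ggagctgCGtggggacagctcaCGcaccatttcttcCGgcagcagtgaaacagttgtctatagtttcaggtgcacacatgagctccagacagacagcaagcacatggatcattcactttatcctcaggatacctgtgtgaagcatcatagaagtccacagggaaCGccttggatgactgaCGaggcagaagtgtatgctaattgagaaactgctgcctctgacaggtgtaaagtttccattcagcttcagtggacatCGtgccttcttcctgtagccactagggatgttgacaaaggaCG
Kcnma1 intron: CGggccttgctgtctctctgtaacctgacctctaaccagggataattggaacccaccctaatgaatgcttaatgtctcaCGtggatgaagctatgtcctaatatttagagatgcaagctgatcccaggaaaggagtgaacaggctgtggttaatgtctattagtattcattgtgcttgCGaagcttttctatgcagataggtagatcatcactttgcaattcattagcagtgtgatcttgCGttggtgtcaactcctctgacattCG
Kcnq3 intron: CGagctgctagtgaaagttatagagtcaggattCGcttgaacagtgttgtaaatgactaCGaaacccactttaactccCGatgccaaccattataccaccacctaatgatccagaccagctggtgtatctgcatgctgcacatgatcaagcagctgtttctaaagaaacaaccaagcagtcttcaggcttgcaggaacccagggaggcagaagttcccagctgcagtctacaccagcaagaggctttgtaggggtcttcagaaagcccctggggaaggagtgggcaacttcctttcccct
Kcne1 intron: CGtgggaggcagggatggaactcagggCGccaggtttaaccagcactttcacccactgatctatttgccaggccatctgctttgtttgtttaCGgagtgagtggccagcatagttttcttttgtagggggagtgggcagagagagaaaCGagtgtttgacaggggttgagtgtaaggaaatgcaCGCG
The 3 CpGs of the Kcnk16 stretch were at 0% to 1.69% at P2 and 0% to 0.96% at P60 over both subtypes. The 7 CpGs of the Kcnk1 stretch lay at 0% to 21.5% at P2 and 30.2% to 84.3% at P60, and no CpG of it at P60 was as low as the highest at P2. The 5 CpGs of the Kcnma1 stretch went the other way, from 24.3% to 45.5% at P2 to 5.81% to 21.5% at P60. The Kcnip4 stretch has 4 of its 5 CpGs within 10 bases of its 5′ end, and the 5 were at 6.98% to 53.3% at P2 and 69.7% to 90.0% at P60.

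**Figure D2:**
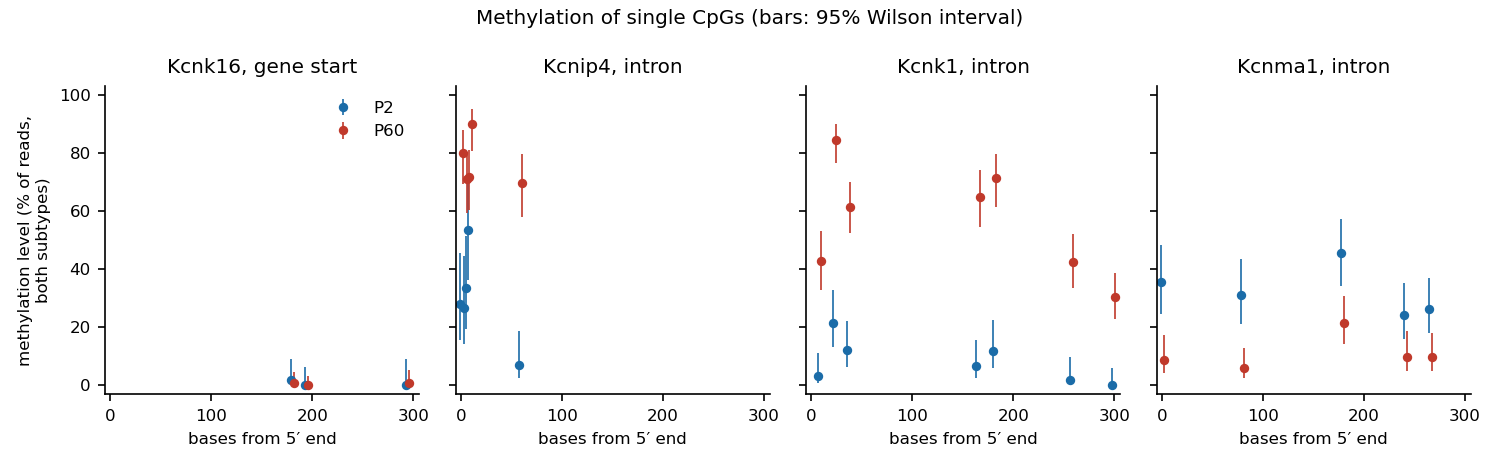
Methylation level (y axis, % of reads, both subtypes together) of each CpG by its distance from the 5′ end of the printed stretch (x axis, bases) for Kcnk16, Kcnip4, Kcnk1 and Kcnma1, at P2 (blue) and P60 (red), with 95% Wilson intervals as bars. The P60 points lie above the P2 points in Kcnip4 and Kcnk1, below them in Kcnma1 and beside them near 0 in Kcnk16.

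Potassium channels with a known part in b cells were mostly low at their start, at either stage. Kcnh6, an Erg family channel, had 7.14%, 6.80%, 4.98% and 6.13% (P2 eYFP-, P2 eYFP+, P60 eYFP-, P60 eYFP+, the order used from here on), and Kcnj6, a G protein-gated inward rectifier, 2.35%, 3.12%, 1.84% and 1.41%. Kcnk3, an acid-sensitive two-pore-domain channel, had 3.69%, 4.64%, 6.54% and 6.24%, and Kcnn3, a small-conductance calcium-activated channel, 4.66%, 5.02%, 6.11% and 5.11%. These 4 genes carried a TSS HMR in all 12 libraries. Kcnma1, the pore of the BK channel, and Kcnn4, the intermediate-conductance channel, had none in any library, with levels of 61.1%, 52.9%, 63.1% and 59.3% for Kcnma1 and 75.1%, 72.6%, 62.0% and 65.0% for Kcnn4.

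The place of the start mattered for some genes. At 25 of the 90 genes the start of the Ensembl canonical transcript lay over 500 bp from the gene start, and 15 of these were under 10% in all pools at the canonical start, against 4 at the gene start. For Kcnma1 the canonical start, 9585 bp away with 95 CpGs, had 1.07%, 1.81%, 1.75% and 1.65% and an HMR in all 12 libraries. For Kcnn4 the canonical start still had 52.7%, 50.9%, 50.9% and 48.1% and no HMR. Kcnc2 (3.00% to 5.53%), Kcna4 (1.47% to 2.34%) and Kcne3 (8.06% to 11.4%) were likewise low at the canonical start, while Kcnab2 was low at its gene start (2.66% to 3.58%) and at 81.8% to 85.2% at the canonical start. With canonical starts, 59 of 90 genes were under 10% in all pools and 12 over 50%. The shares of all genes at canonical starts were not counted, so whether these numbers are particular to potassium channel genes was not tested.

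The stage comparison asked which starts changed between newborn and adult b cells. Of the 90 TSS windows 8 were called (8.89%, against 3.96% of all windows, 3.25% for higher at P60 and 0.713% for lower), and all 8 were higher at P60. Called here means an adjusted p under 0.05 by Fisher's exact test on the reads, Benjamini-Hochberg adjusted over all windows, with at least 10 percentage points in the same direction in both subtypes. At 73 genes the difference was under 10 points in both subtypes. The test compares pools of reads, since counts per library were not used here, and the second subtype is its only repeat. The values of 7 of the 8 genes follow. Kcnj13, an inward rectifier known from the retinal pigment epithelium, rose from 28.9% and 34.2% at P2 to 51.3% and 63.7% at P60 (adjusted p = 2.4e-05 in eYFP- by Fisher's exact test), and Kcnk13, a halothane-inhibited two-pore-domain channel, from 33.6% and 29.2% to 50.8% and 49.8%. Kcng4, a modifier Kv subunit, rose from 48.0% and 46.0% to 63.9% and 59.9%, and Kcnj1 from 67.2% and 66.7% to 79.3% and 78.3%. Kcnj5, a G protein-gated inward rectifier, rose from 7.87% and 7.10% to 20.2% and 17.6%. The auxiliary Kv4 partners Kcnip2 and Kcnip3 rose from 21.1% and 18.6% to 31.6% and 31.9% and from 9.19% and 6.44% to 20.8% and 20.1%.

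**Figure D3:**
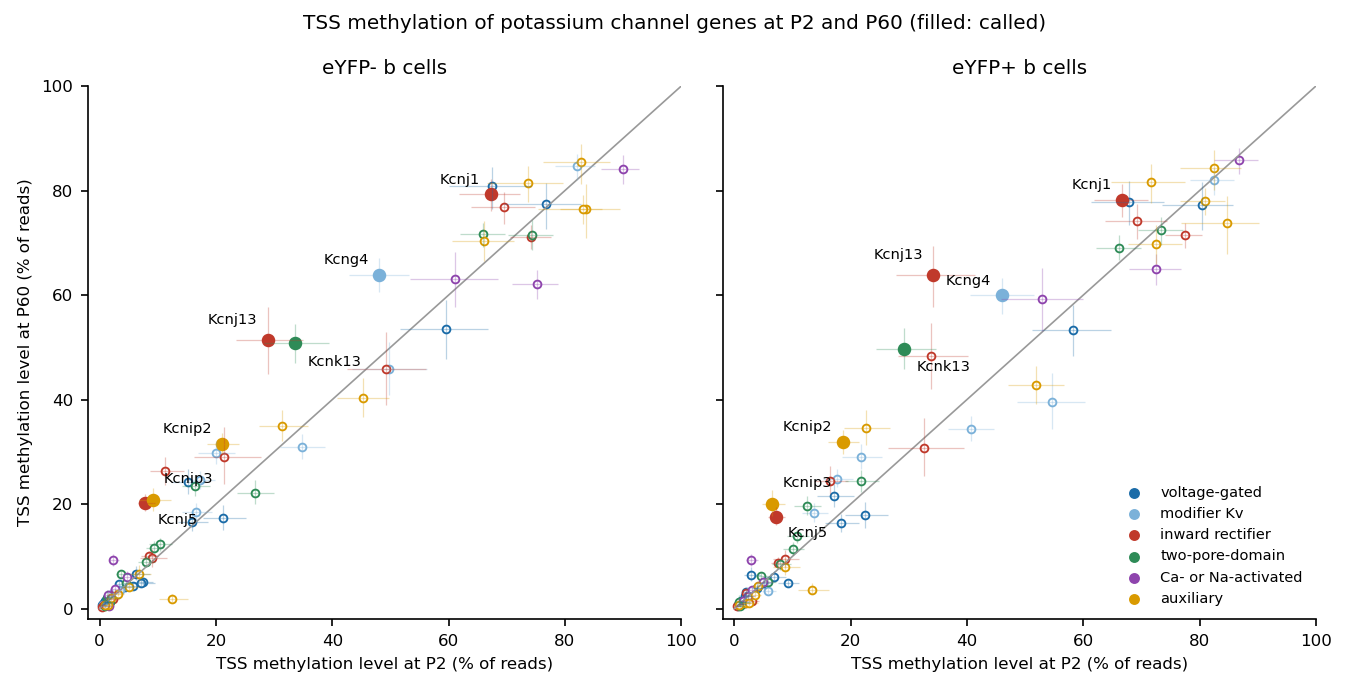
TSS methylation level at P2 (x axis) and P60 (y axis, both % of reads) of 87 of the 90 genes in eYFP- (left) and eYFP+ (right) b cells, coloured by channel class, with 95% Wilson intervals as bars and the line of equal levels in grey. The 7 called genes shown (filled, named) lie above the line in both panels.

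In the libraries, the Kcnj13 window was reached by an HMR in 4 of 4 P2 libraries and 0 of 8 P60 libraries. The same held for Kcnj15, an inward rectifier whose level was not called (21.4%, 32.6%, 29.1% and 30.7%). Kcne1, an auxiliary subunit, went from 4 of 4 to 1 of 8 libraries with levels of 31.4%, 22.6%, 35.0% and 34.6%, also not called. Of the 8 called genes, 4 have a canonical start elsewhere and were not called there. Kcnk13 had 3.36%, 2.23%, 2.03% and 2.30% at its canonical start 5794 bp away, where an HMR stood in all 12 libraries. Kcnip2 had 52.7% to 59.5% at the canonical start and Kcnip3 4.74%, 5.87%, 11.8% and 8.97%. Within 250 bp of the gene start Kcnj5 differed by 1.20 points and was not called. Kcnmb1, a BK subunit of smooth muscle, was the 1 gene called at the canonical start only, with 28.3%, 31.0%, 50.6% and 50.5%. Kcnn4, which fell by 13.1 points in eYFP- and 7.59 points in eYFP+, and Kcnip1, which fell by 10.5 and 9.74 points, missed the size asked for in 1 subtype. So did Kcnj8, which rose by 15.0 points in eYFP- and 8.05 points in eYFP+, and Kcnc2, which rose by 13.3 and 9.95 points. At its canonical start, 149567 bp away, Kcnip1 was higher at P60 instead (8.21%, 6.82%, 13.1% and 17.6%) and was not called.

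The regions around and within the genes were followed through HMRs. The 4 pooled HMR lists were merged, and 519 of 84472 merged HMRs lay in the bodies of the 90 genes or within 10 kb of them, in the windows of 89 genes, with 9 in the windows of more than 1 gene. By place, 69 overlapped a TSS window (median length 1845 bp, 86 CpGs), 80 an exon (633 bp, 21 CpGs), 255 lay in introns (412 bp, 7 CpGs) and 115 in the flanks (562 bp, 10 CpGs). In every library were 63 of the 69 TSS HMRs, 41 of the 80 exonic, 41 of the 255 intronic and 52 of the 115 in flanks, and 73 HMRs of the pools were in no library. The genes with most were Kcnip1 (33), Kcnma1 (26), Kcnip4 (25) and Kcnj6 (18), genes of 253 to 1135 kb.

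Of the 515 HMRs tested, 114 were called by stage (22.1%, against 25.1% of all HMRs). In these, 105 were higher at P60 (20.4%, against 23.4%) and 9 lower (1.75%, against 1.71%), and the median difference over the 515 was 2.39 points in eYFP- and 2.32 in eYFP+, against 3.03 and 2.52 over all HMRs. The HMRs were called on these reads, so their levels are not independent of how they were chosen, and a region low at one stage only is more easily called. HMRs in the windows of 48 genes rose, of 8 genes fell, and of 7 genes did both. By place, 2 of 69 TSS HMRs were higher (2.90%, against 2.99% for the HMRs of all genes placed in the same way, each counted once per gene), as were 18 of 80 exonic (22.5%, against 22.6%), 67 of 252 intronic (26.6%, against 31.3%) and 18 of 114 flank HMRs (15.8%, against 17.3%). The shares by place were thus near those of all genes. By class, the two-pore-domain genes had 16 of 56 higher (28.6%) and none lower, the inward rectifiers 19 of 73 (26.0%) and none lower, the calcium- or sodium-activated genes 15 of 71 (21.1%) and 3 lower, the auxiliary genes 26 of 123 (21.1%) and 2 lower, the voltage-gated genes 27 of 160 (16.9%) and 3 lower, and the modifier Kv genes 2 of 32 (6.25%) and 1 lower.

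**Figure D4:**
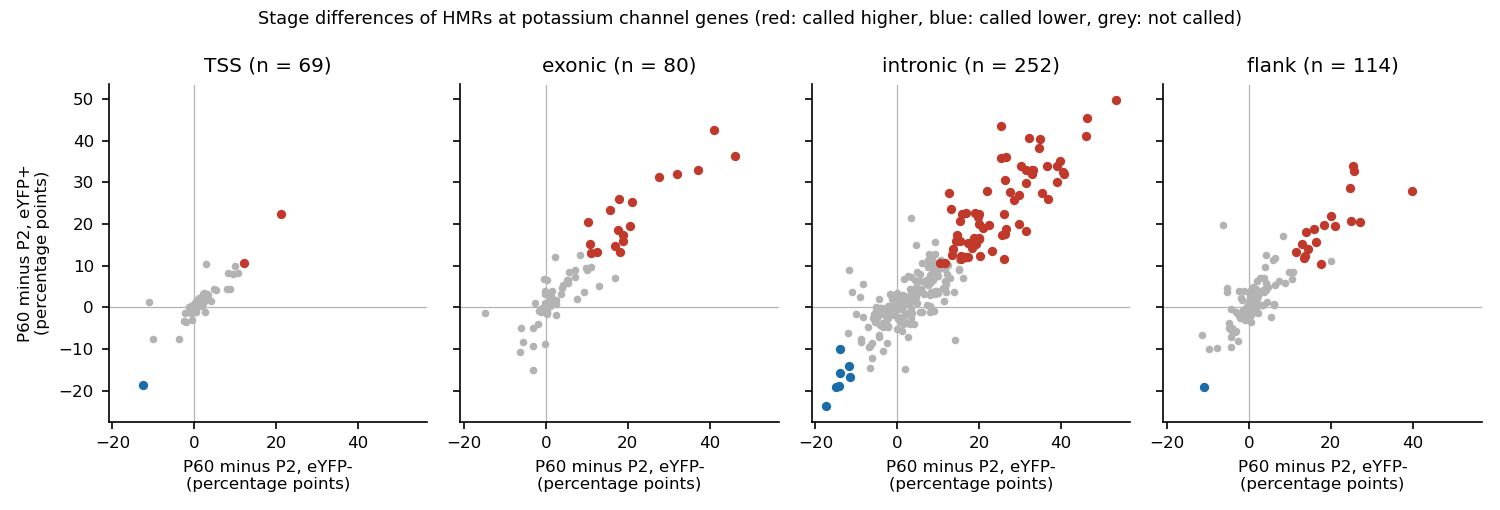
Difference in methylation level between P60 and P2 (percentage points) in eYFP- (x axis) and eYFP+ (y axis) b cells for the 515 HMRs tested, by place. Called HMRs are red where higher at P60 and blue where lower; the red points are few among TSS HMRs (2 of 69) and most frequent in introns (67 of 252).

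The largest rise was at an intronic HMR of 384 bp in Kcnip4, a Kv4 partner, from 22.4% and 19.2% at P2 to 75.8% and 69.0% at P60 (adjusted p = 3.7e-25 in eYFP- by Fisher's exact test), whose stretch is printed above. In Kcnk1, a weakly rectifying two-pore-domain channel, an intronic HMR of 589 bp rose from 8.41% and 7.43% to 54.7% and 52.9% and was present in 4 of 4 P2 and 0 of 8 P60 libraries, and another of 809 bp rose from 13.6% and 17.5% to 52.5% and 51.5%. Intronic HMRs rose in Kcnh1, an ether-a-go-go channel (18.3% and 17.1% to 64.3% and 58.3%), in Kcnb2, a delayed rectifier (19.8% and 18.1% to 54.7% and 58.6%) and again in Kcnip4 (24.2% and 18.7% to 56.5% and 59.4%). An exonic HMR of 164 bp rose in Kcnab2, a Kv beta subunit, from 13.9% and 11.9% to 60.1% and 48.1%.

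The 9 falls were smaller. In Kcnma1 the intronic HMR of 266 bp whose stretch is printed above fell from 28.9% and 35.0% to 11.5% and 11.3%, and one of 428 bp from 22.4% and 25.0% to 7.31% and 5.92%. Upstream of Kcng4 a flank HMR of 358 bp fell from 16.5% and 29.4% to 5.68% and 10.4% and went from 1 of 4 to 7 of 8 libraries, while the TSS window of the same gene rose. The TSS HMR of Kcnip1, another Kv4 partner, which spans 3583 bp and was present in all 12 libraries, fell from 25.7% and 30.8% to 13.2% and 12.2%. The canonical start of Kcnip1 lay elsewhere and went the other way, as given above. Other falls lay in introns of Kcnip4 (43.2% and 37.3% to 28.8% and 18.4%), Kcnq5, a Kv7 channel (30.1% and 33.3% to 16.1% and 17.7%), Kcnh1 (19.4% and 26.2% to 7.89% and 9.59%) and Kcnn3 (26.1% and 21.7% to 11.95% and 11.6%), and were HMRs in at most 1 library.

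Among the genes known in b cells, Kcnma1 and Kcnn3 held HMRs called in both directions and Kcnj6, Kcnh6, Kcnn4 and Kcnk16 held HMRs called higher at P60, while none of their TSS windows was called by stage. Of the 26 HMRs of Kcnma1, 9 rose and 2 fell, the largest rise being that of 607 bp from 8.62% and 5.93% to 48.4% and 41.1%, in 4 of 4 P2 and 0 of 8 P60 libraries. Of the 15 HMRs of Kcnn3, 3 rose, among them 1 of 641 bp from 9.93% and 6.61% to 42.9% and 39.6%. Of the 17 tested HMRs of Kcnj6 7 rose, the most 1 of 346 bp from 20.3% and 20.4% to 55.0% and 58.6%. In Kcnh6 an exonic HMR of 738 bp rose from 31.8% and 26.3% to 59.4% and 57.7%, and in Kcnn4 an intronic one from 26.5% and 23.0% to 54.0% and 50.7%. Upstream of Kcnk16 a flank HMR of 560 bp rose from 8.97% and 10.8% to 48.8% and 38.8% and was lost from 4 of 4 to 0 of 8 libraries, beside the TSS HMR that stayed in all 12. The 3 HMRs of Kcnk3 were not called.

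Presence in the libraries gave the same question with 1 value per library. Of the 519 HMRs, 25 in 22 genes were present in every P2 and no P60 library (4.82%, against 5.46% of all HMRs), and 0 the other way round (against 0.0651%). Of these 25, 23 were called higher at P60 by their reads. The reads are those of the same libraries pooled, so this is not separate evidence. Kcnj4, a strong inward rectifier, had 4 of them, with 3 in its flanks and 1 in an intron, at levels of 3.51% to 25.2% at P2 and 22.3% to 44.9% at P60. Without both P2 eYFP- libraries, whose sex labels went against the data, the count was 40, by its construction from fewer libraries (against 8.46%).

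The share of each gene window in HMRs was then compared across libraries. The limma fit took the 12 libraries as independent. Same-numbered P60 libraries of both subtypes deviated together, so SEs and p-values by stage may be too small. For the 87 genes with an HMR in at least 2 libraries, the percent of the body and flanks covered by the library's own HMRs was lower at P60 for 56 and higher for 0 (limma, adjusted p under 0.05, against 53% of all 17140 genes called, 51.4% lower and 1.61% higher), with a median difference of -0.71 points, against -0.66 over all genes. Since P60 libraries held fewer HMRs throughout, each value was also divided by the library's own mean percent, which left 27 lower and 11 higher (all genes 3900 and 3834), the higher ones including Kcnh6, Kcnj2 and Kcna4. The count was 45 to 56 when a library was left out (against 46.4% to 51.8% of all genes) and 46 without both P2 eYFP- libraries (against 45.8%).

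Kcnj4 had 11.9% and 11.4% (P2 eYFP-) and 11.9% and 11.6% (P2 eYFP+), against 6.54%, 6.96%, 5.87% and 6.80% (P60 eYFP-) and 7.14%, 7.21%, 6.59% and 6.74% (P60 eYFP+), a difference of -4.96 points (SE 0.24, limma adjusted p = 3.0e-07). No P60 library reached the lowest P2 library. Kcnj13 had 3.62%, 3.62%, 3.62% and 4.10% in the 4 P2 libraries and was listed at 0 in all 8 P60 libraries. Kcnk1 had 7.97% to 9.97% at P2 and 3.85% to 5.74% at P60, again without overlap. Kcnk16 had 13.9% to 17.6% at P2 and 9.80% to 12.1% at P60 (-4.60 points, SE 0.75, limma adjusted p = 0.00056), a call that was lost for the gene body without flanks (-3.56 points). Kcnk6, a weakly rectifying two-pore-domain channel, fell from 13.3% to 16.6% at P2 to 10.1% to 11.0% at P60, and Kcnip3 from 7.64% to 11.3% to 4.56% to 7.79%, where the highest P60 library passed the lowest P2 library. Kcnk4, a mechanosensitive two-pore-domain channel, Kcnh2 and Kcnn1 had differences of -4.39, -3.84 and -3.25 points, and these 3 were not called once divided by the library's percent. Kcnh2 (14.5% to 19.0% at P2, 10.1% to 15.7% at P60, limma adjusted p = 0.0225) also lost its call without P2 eYFP- replicate 1, P2 eYFP- replicate 2 or P2 eYFP+ replicate 1, with differences of -3.62, -4.06 and -2.71 points, and likewise without both P2 eYFP- libraries (-4.30 points) and without flanks (-4.68 points). Among the b cell channels, Kcnj6 (-1.07 points), Kcnk3 (-2.34), Kcnma1 (-0.26), Kcnn3 (-1.19) and Kcnn4 (-2.48) were called lower and Kcnh6 (1.83 points, limma adjusted p = 0.087) was not called.

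**Figure D5:**
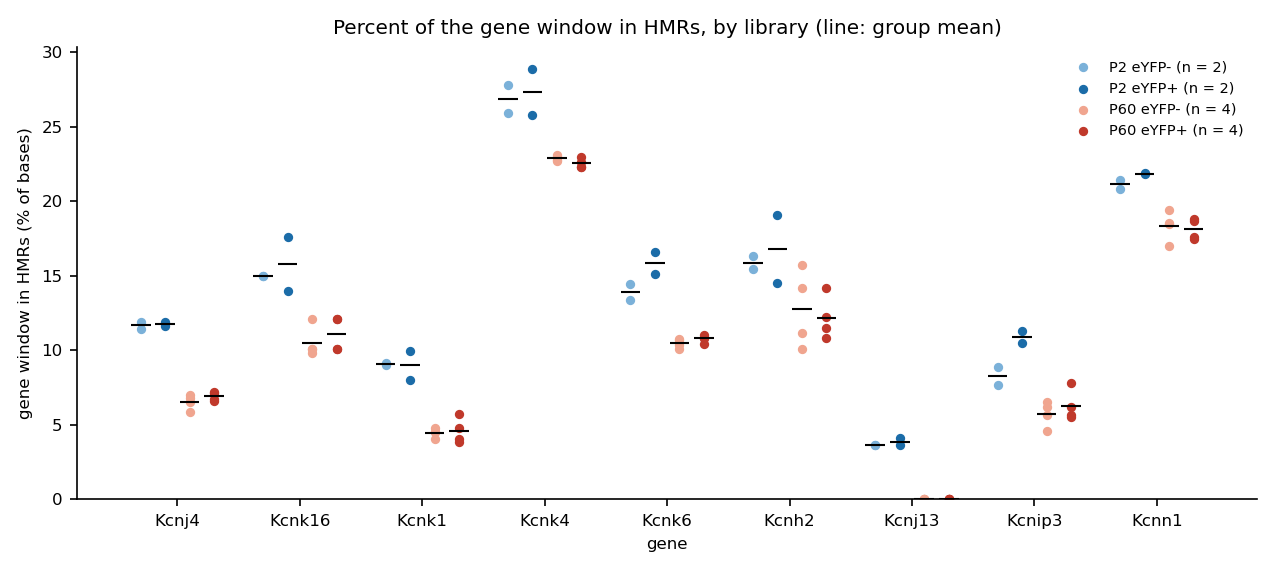
Percent of the gene window (body and 10 kb each side) in the HMRs of each library, for 9 of the 10 genes with the largest called stage differences, with a point for each library (P2 n = 2 and P60 n = 4 a subtype) and a line at each group mean. P60 libraries (red) lie below P2 libraries (blue) for Kcnj4, Kcnk1 and Kcnk16, those of Kcnj13 lie at 0, and those of Kcnh2 and Kcnip3 overlap with P2.

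The second comparison asked where the eYFP+ and eYFP- subtypes differed. At the TSS windows 0 of 90 genes were called at P2 and 0 of 90 at P60 by Fisher's exact test with at least 10 points (against 0.093% of all windows at each stage, 0.0465% higher and 0.0465% lower in eYFP+ at P2, 0.0413% higher and 0.0517% lower at P60). An unadjusted p under 0.05 was reached by 12 genes at P2 (13.3%, against 10.8% of all windows) and 7 at P60 (7.78%, against 12.2%). The largest difference at P2 was that of Kcnj16, a renal inward rectifier, with 49.3% in eYFP- and 33.9% in eYFP+ (adjusted p = 0.099 by Fisher's exact test), and the largest at P60 that of Kcnj13, with 51.3% and 63.7% (adjusted p = 0.17). Kcnn1 had an adjusted p of 0.039 at P60 by the same test with levels of 0.54% and 1.42%, a difference of 0.88 points. For Kcnk16 the difference was -0.44 points at P2 and -0.82 points at P60.

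Among HMRs, 4 of 515 were called between the subtypes at P2 (0.777%, against 1.21%, with 0.791% higher in eYFP+ and 0.422% lower) and 4 at P60 (0.777%, against 0.661%, with 0.318% higher and 0.343% lower). At P2 an intronic HMR of 406 bp in Kcnq3, a Kv7 channel, had 15.5% in eYFP- and 40.2% in eYFP+ (adjusted p = 0.00049 by Fisher's exact test), and it was an HMR of no library. The other 3 were lower in eYFP+, in the flank of Kcnmb4 (43.6% and 21.7%), an intron of Kcnma1 (25.0% and 10.3%) and the flank of Kcnj5 (15.3% and 5.03%, an HMR of all 12 libraries). At P60 these 4 differed by at most 4.68 points and were not called. At P60 the called HMRs were an intron of Kcne1 (18.3% in eYFP- and 33.5% in eYFP+, adjusted p = 0.0033 by Fisher's exact test), the other flank of Kcnj5 (43.4% and 57.6%, risen with stage from 18.1% and 23.5%), an exon of Kcne2, an auxiliary subunit (24.6% and 35.7%), and, lower in eYFP+, the exonic HMR of Kcnab2 that had also risen with stage (60.1% and 48.1%). At P2 the same 4 were not called. The printed Kcne1 stretch then had 30.1% in eYFP- and 24.5% in eYFP+, the opposite direction to P60, while the Kcnj5 HMR went the same way at both stages. The printed Kcnq3 stretch had 4 CpGs and the Kcne1 stretch 6, so each difference rests on a few CpGs.

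By presence, 14 of 519 HMRs separated the P2 subtypes (2.70%, against 2.57% of all HMRs), 8 of them found in both eYFP+ libraries and neither eYFP- library (against 1.45%) and 6 the other way round (against 1.12%). Those of the eYFP+ libraries included 2 at Kcnn4 and 1 each in Kcnk3, Kcnj6, Kcnh2, Kcnh6 and Kcnip4, and those of the eYFP- libraries lay in Kcnmb2, Kcnmb4, Kcnd2, Kcnj9, Kcnip1 and Kcnh8. None of the 14 was called between the subtypes by its reads. At P60, with 4 libraries on each side, 0 of 519 did (against 0.0379%, 0.0166% in eYFP+ only and 0.0213% in eYFP- only), and with 1 library left out the count reached 3 (without eYFP- replicate 2) and 1 without eYFP- replicate 1, 3 or 4 or eYFP+ replicate 1 or 3.

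The share of the gene window in HMRs gave no call between the subtypes for the 87 genes by limma, at P2 (0, against 0.811% of all genes, 0.665% higher and 0.146% lower, with 8 at an unadjusted p under 0.05) or at P60 (0, against 0%, with 3). The stage difference was called different between subtypes for 0 genes (against 0.385%, 0.0875% higher and 0.298% lower, with 5 at an unadjusted p under 0.05). Kcnn4 came nearest at P2, with 9.12% and 7.75% in eYFP- and 11.5% and 12.7% in eYFP+ (3.69 points, SE 0.87, limma adjusted p = 0.12), and had 6.59% to 9.83% over the 8 P60 libraries. Without P2 eYFP+ replicate 1 there were 2 calls at P2 (Kcnj13 and Kcnmb1, against 1.71% of all genes) and without P2 eYFP+ replicate 2 there were 3 (Kcnh1, Kcnj15 and Kcnk6, against 3.01%), no gene of which was called in both.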

How the data were processed

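DNA methylation was measured by whole-genome bisulfite sequencing in 12 libraries. The authors trimmed reads with Trim Galore 0.6.6 and cutadapt 1.16, mapped them to mm39 with abismal, and processed them with SAMtools 1.5 and MethPipe, which gave the read counts at each CpG and the HMRs. Versions of abismal and MethPipe are not given in the sources used here. The deposited counts of methylated and unmethylated reads pool the libraries of a subtype at a stage. B1 was taken as eYFP- and B2 as eYFP+, and HMRs of single libraries overlapped those of the pools of the same subtype more. The deposited score per CpG and the lists of differentially methylated regions hold the authors' own comparisons and were not used. All listed autosomal positions were CpGs of GRCm39, and genes came from GENCODE vM39.

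Windows and HMRs needed 3 CpGs and 50 reads in each pool. Reads were compared by a two-sided Fisher's exact test (checked against scipy 1.17.1), Benjamini-Hochberg adjusted over all windows or HMRs, and called at an adjusted p under 0.05 and 10 percentage points. P-values from pooled reads measure counting error only. Counts were summed over CpGs, so a read that spans several CpGs was counted at each of them. Such counts are not independent, and the p-values and Wilson intervals may be too small and too narrow. The percent of each gene window (body and 10 kb each side) in HMRs was compared across libraries with limma 3.58.1 in R 4.3.3 (trend, robust), 4 groups and no block, without counts. Whether libraries came from separate mice is not stated per mouse, so their spread may be partly technical. At P60, same-numbered libraries of both subtypes deviated together over genes (correlations of 0.19 to 0.40), so replicate numbers were taken to pair them. At P2 same-numbered libraries did not (-0.07). The fit without a block took all libraries as independent, so its SEs and p-values by stage may be too small. Fisher steps were tested on simulated data: of 100 windows changed by 20 points, 90% were recovered for the stage comparison of 19350 TSS windows, and of 100 HMRs changed as much among 82478, 81% for the stage and 84% and 96% for the P2 and P60 subtype comparisons, with 0 false calls by stage, 3 at TSS windows between the P2 subtypes and 2 at HMRs in each subtype comparison. Simulated reads were drawn independently at a shared level per region, without spread between libraries or mice. The false calls therefore check the computation and do not give the error rate in these pools.

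The genes, classes and lists were chosen with earlier results of these data known. Named genes were, per comparison, up to 10 called in each direction by size, the lowest and highest TSS level per class, the 5 longest TSS HMRs and 8 channels known in b cells; others named were chosen after their values were seen. Alternatives changed the read minimum, the size asked for, centring, the window, the start, the HMR length, the flanks, the filter, scaling, the block and the libraries. Values of some of these genes are not reported here, while the counts and medians cover all 90.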

Additional observations from a re-analysis of the deposited data

Results flagged for a closer look

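The percent of the gene window in HMRs was examined for a library far from the other 3 of its P60 group, in 15 genes and 28 groups, of which 1 had one; chance gives about 1 in 20 such groups. Kcnk16 had 12.1% in P60 eYFP- replicate 4 against 9.80% to 10.1% in the others, and 12.1% also stood in 2 libraries of the eYFP+ group. No gene's stage difference was called different between the subtypes.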

How the results depend on the processing

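Shares of all windows, HMRs or genes called under the same setting stand in brackets. Without a minimum difference there were 17 TSS windows called by stage (10.6%), 1 between subtypes at P60 (1.52%), 193 HMRs by stage (39.5%), 9 between subtypes at P2 (2.09%) and 12 at P60 (1.95%). With 20 points these were 2 TSS windows by stage (0.884%), 43 HMRs by stage (10.5%), 2 at P2 (0.162%) and 0 at P60 (0.0436%). With 200 reads 67 HMRs were called by stage (22.6%), 2 at P2 (1.08%) and 2 at P60 (0.492%). With HMRs of at least 200 bp there were 2 at P2 (0.925%) and 2 at P60 (0.494%), without flanks 2 of 403 at P2 (1.21%), and with 50 kb flanks 201 of 883 by stage (25.1%) and 8 at P2 (1.21%). At canonical starts 5 TSS windows were called by stage (3.4%), and Kcnk13 was lower at P60 by -0.63 points. Of the 8 called TSS windows 3 lost the call within 250 bp of the start and 4 within 1000 bp. Among the named TSS windows, HMRs and genes that were called, the other differences kept their direction under every alternative run. Stage differences of named TSS windows that were not called were not followed, and Kcnip1 went the other way at its canonical start. The cause of lost calls was not tested.

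For the percent of the window in HMRs, without flanks 1 gene (Kcnh8) was called between subtypes at P2 (1.82%) and 1 in the interaction (1.28%). Leaving out each library gave 45 to 56 calls by stage, 0 to 3 between subtypes at P2 and 0 to 1 in the interaction. HMRs separating the libraries were 25 to 33 by stage, 35 to 41 for P2 subtypes and 0 to 3 for P60 subtypes; the rise at P2 is by construction, with 1 library against 2. The replicate block left 0 calls between subtypes at P2, at P60 and in the interaction for the 87 genes. Over all 17140 genes it left 25, 0 and 7, where 139, 0 and 66 were called without it. At P2 same-numbered libraries did not deviate together (-0.07) and had opposite X chromosome patterns. The block at P2 and in the interaction thus rests on replicate numbers alone there. The stage contrast was not fitted with the block. The block with division by the library's percent, an alternative chosen after seeing the data, also left 0 for the 87 genes (18, 0 and 8 over all genes). Also chosen after seeing the data, leaving out both P2 eYFP- libraries gave 40 separating HMRs by stage (8.58% in either direction), and leaving out both P60 libraries with the fewest HMRs gave 2 separating the P60 subtypes (0.223%). Pooled reads allow no leave-one-out and no paired test. The read minimum of 200 left 307 of 515 HMRs to test.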
